A study of Mus musculus with 9 samples.

Results

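Genes that drive mitosis and build the spindle were examined in the optic cup of the mouse embryo. The list named 44 genes, from the kinases that start mitosis to the proteins that cut the daughter cells apart, and 43 of them had a probe set that the platform annotation assigns to a single symbol. Ccnb1 is not analysed here. Each gene was read from its brightest such probe set over the 9 arrays, by the same rule that gave 18193 genes in all. Of these, 12773 passed a filter on dim signals (3 or more arrays over their 40th percentile) and were tested, among them all 43 members.

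RNA came from 3 regions of the E11.5 cup isolated by laser-assisted microdissection and was hybridised to Affymetrix mouse 430 2.0 arrays, 3 arrays per region lettered A, B and C. The fissure samples held cup cells lying up to 5 cell diameters from the edge of the optic fissure, and the nasal and temporal samples held the centre of each side of the cup. The labels name no strain, mutation or treatment for any region. The submitters call the 3 arrays biological replicates but do not say whether arrays of a letter share embryos. The p-values therefore set differences between regions against the spread within regions in these 9 samples, and reach no further.

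At this stage the cup is a neuroepithelium whose progenitors divide at the apical surface. Entry into mitosis is set by cyclin-bound Cdk1, chromosomes are then compacted by condensin and attached to spindle microtubules through kinetochores, and a checkpoint holds anaphase until all are attached. The anaphase-promoting complex then releases the sister chromatids, and the central spindle places the furrow. Most of these genes are transcribed periodically, with their transcripts highest from G2 into mitosis.

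Values are linear probe set intensities, whose precision is limited by the number of arrays. Changes are differences in log2(intensity + 16) with their standard error (SE), and a gene was called at a Benjamini-Hochberg adjusted p under 0.05 over all tested genes in limma. Array medians lay between 27.4 and 30.2. The first principal component, with 43.4% of the variance, placed fissure arrays A and C at -38.7 and -43.1, fissure array B at -9.39 and the other arrays at 4.63 to 29.5. Counts of called members are therefore also given without fissure array B. Deviations from the region means correlated across genes at 0.166 to 0.486 in the 9 same-letter pairs of arrays and at -0.438 to 0.218 in the 18 other pairs. Values with the letter as a block are given beside those without it.

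Most mitosis and spindle genes read lower in the fissure than in the nasal and temporal cup, by a moderate amount. The median change of the 43 members was -0.34, against 0.04 over all tested genes, and 39 of 43 changes lay below 0, as did 5614 of all 12773. Set against the mean of the nasal and temporal cup, 6 members fell (Prc1, Cdk1, Plk4, Kif20a, Kif11 and Smc2), a count of 14% of members against 2.88% of all tested genes. None rose in limma, where 5.72% of all genes were called higher, and 1 (Cdc25b) lay higher at an unadjusted p under 0.05. With the letter as a block, 15 members were called lower against 5.97% of all genes, and 1, Cdc25b, higher against 11.0%. In bulk samples such as these, fewer dividing cells and less of these RNAs per cell cannot be told apart.

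The shift was spread over the list and not carried by the called genes alone. At an unadjusted p under 0.05, 22 members were lower, against 8.57% of all genes. In 15 members every fissure array lay below every nasal and temporal array, against 5.76% of all genes, and in 0 members did every fissure array lie above them, against 8.41%. Within each of the 3 letters taken alone, 31 members were lower in the fissure, against 20.1% of all genes. The sizes were small, and 4 members (Kif11, Prc1, Cdk1 and Kif20a) were lower by at least 1.5-fold, against 3.37% of all genes.

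The number called depended on single arrays. Without fissure array A or without fissure array C, 1 member was called (Prc1), 2.33% of the list, where 4.27% and 4.62% of all genes were called in either direction. Without fissure array B 13 were called, 12 lower and 1 (Cdc25b) higher, against 13.5% of all genes. Leaving out nasal array A gave 3 members (6.35% of all genes), as did leaving out temporal array A (6.96%). With the signal of the labelling spike (poly-A) as a covariate, 0 members were called, against 3.71% of all genes, and 11 were lower at an unadjusted p under 0.05, while the median change was -0.37. The median change lay between -0.37 and -0.29 under every alternative run, so the median moved less than the count. Single members moved more. With the spike covariate the change of Kif11 was -0.66 against -0.96 without it, and that of Smc2 -0.40 against -0.53. Those of Cdk1 (-0.58 against -0.64) and Kif20a (-0.50 against -0.62) were also smaller, while Prc1 (-0.67 against -0.66) and Plk4 (-0.59 against -0.57) were not.

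**Figure D1:**
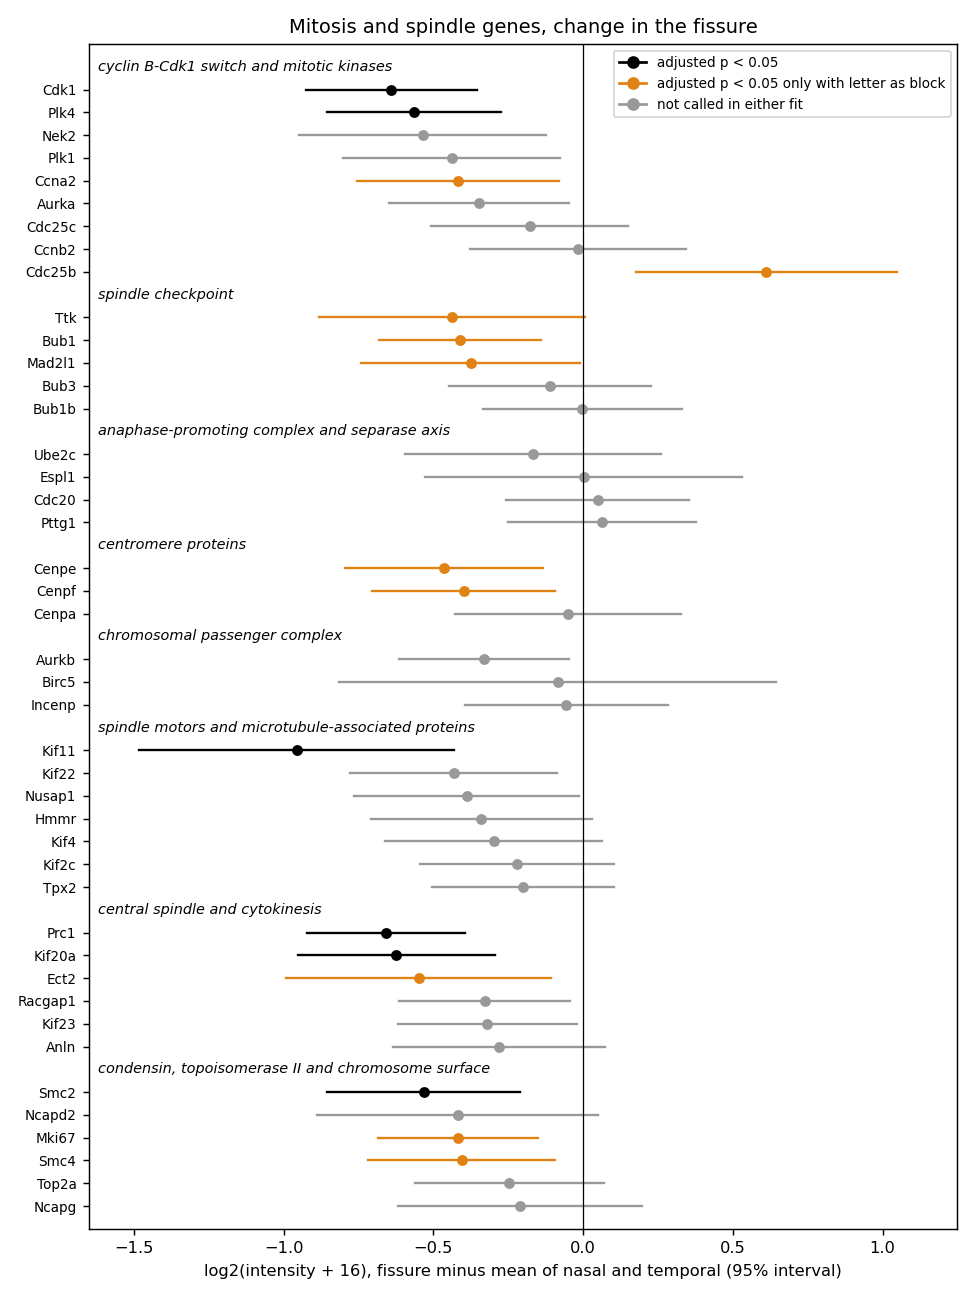
Change of each of the 43 members, fissure minus the mean of the other regions, in log2(intensity + 16), with its 95% interval, grouped by role. Black marks the 6 members called without a block, orange those called only with the letter as a block and grey the rest, and 39 of the 43 points lie left of 0.

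Mean deviations over the members show the same order on single arrays. On the log2 scale the members lay on average -0.20, -0.22 and -0.20 from their own mean on fissure arrays A, B and C. The nasal arrays lay at 0.11, 0.15 and 0.17, and the temporal arrays at 0.03, 0.02 and 0.14. All 3 fissure arrays were thus below all 6 others in this mean, including fissure array B, which stood apart over all genes. In every called member, however, fissure array B read highest of the 3 fissure arrays, as in Kif11 (355 against 186 and 206). Its mean also held members that were low on every letter B array, such as Birc5 (-0.84, with -0.62 on nasal and -0.56 on temporal array B). Within the letters, the members' median change was -0.24 in A (33 of 43 lower), -0.27 in B (40 of 43) and -0.36 in C (41 of 43).

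**Figure D2:**
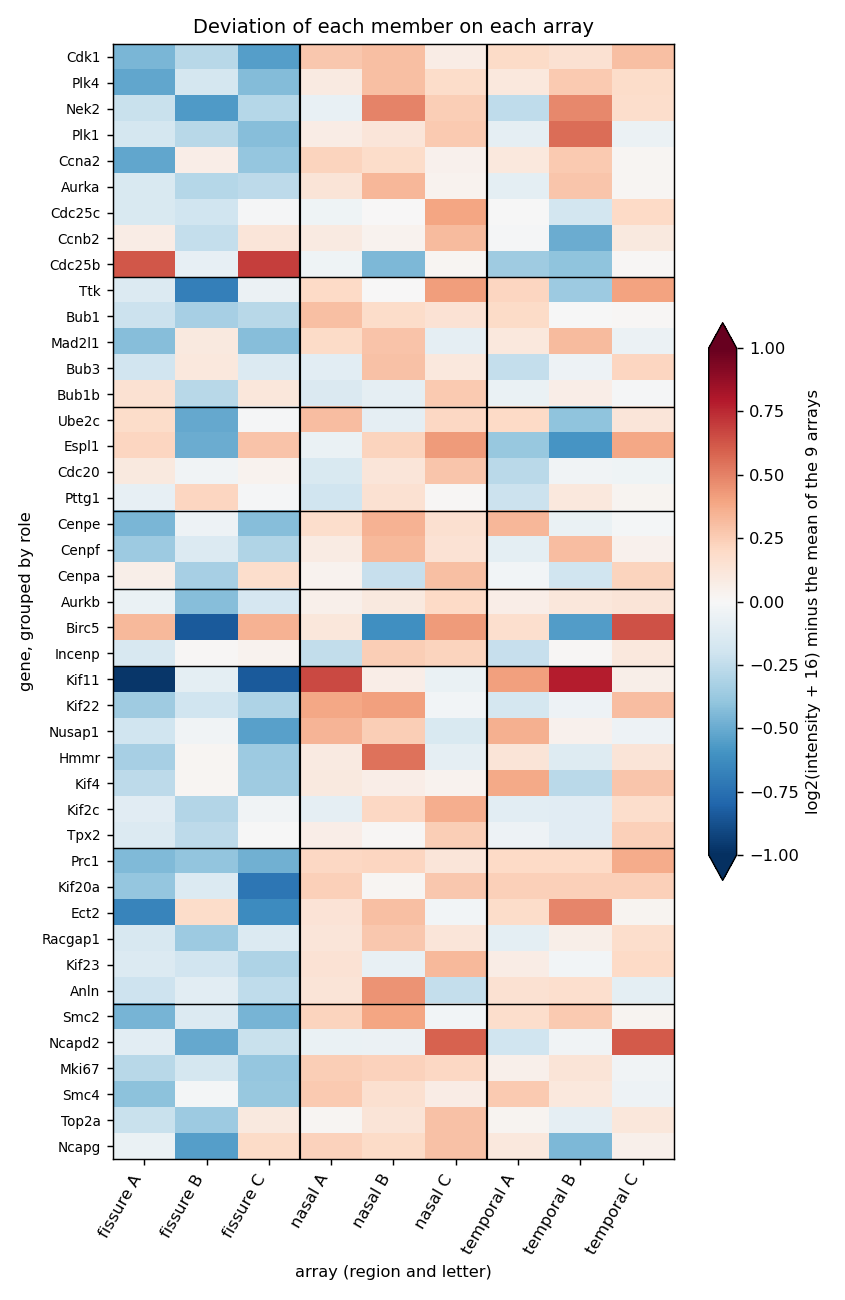
Deviation of each member (rows, grouped by role) from its mean over the 9 arrays, on each array (columns), as a difference in log2(intensity + 16). Blue is below and red above the gene's mean, and the 3 fissure columns, with member means of -0.20 to -0.22, are mostly blue.

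Many genes of this kind share short promoter elements. The cell cycle genes homology region (CHR) is bound by the MuvB complexes that repress these genes in resting cells and activate them in G2, and the CCAAT box is bound by the factor NF-Y. RefSeq promoter windows of build GRCm38.p6, running from 250 bases before to 50 bases after the annotated start, were found for 36 of the 43 members. They were searched on both strands for the CHR hexamer TTTGAA, for CCAAT and for 2 E2F forms, TTTCCCGC and TTTGGCGC. None of the 4 contains another, and neighbouring matches may share bases. A gene counted as holding a motif if any of its windows did, and of the 3 members with 2 windows the one with more matches before the start is drawn or shown.

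The windows below belong to the 6 members with the smallest p in the fissure comparison that hold both elements, and they are shown because they let the arrangement be read directly. Each run is the 250 bases before the start, 5′ to 3′ on the gene's strand, with capitals marking TTTGAA or CCAAT and their reverse complements TTCAAA and ATTGG. Prc1 lies at chr7:80294226-80294475 on the plus strand, Cdk1 at chr10:69352913-69353162 on the minus strand, and Kif11 at chr19:37376132-37376381 on the plus strand. Smc2 lies at chr4:52438971-52439220 on the plus strand, Mki67 at chr7:135716380-135716629 on the minus strand, and Cenpf at chr1:189688087-189688336 on the minus strand.
Prc1: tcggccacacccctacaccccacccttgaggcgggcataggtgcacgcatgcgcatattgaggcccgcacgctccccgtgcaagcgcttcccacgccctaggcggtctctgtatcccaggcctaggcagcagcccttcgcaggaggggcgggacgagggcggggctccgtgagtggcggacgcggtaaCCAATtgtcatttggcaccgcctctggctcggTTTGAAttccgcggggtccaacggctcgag
Cdk1: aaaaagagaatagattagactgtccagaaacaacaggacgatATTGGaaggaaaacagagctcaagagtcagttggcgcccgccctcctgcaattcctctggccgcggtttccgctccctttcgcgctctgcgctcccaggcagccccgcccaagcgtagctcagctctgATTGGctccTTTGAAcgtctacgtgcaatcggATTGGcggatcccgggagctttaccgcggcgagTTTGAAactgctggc
Kif11: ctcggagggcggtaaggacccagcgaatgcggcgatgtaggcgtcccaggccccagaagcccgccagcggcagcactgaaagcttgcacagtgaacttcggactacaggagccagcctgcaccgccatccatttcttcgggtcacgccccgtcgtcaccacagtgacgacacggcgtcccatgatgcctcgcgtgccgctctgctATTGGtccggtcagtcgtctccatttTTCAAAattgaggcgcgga
Smc2: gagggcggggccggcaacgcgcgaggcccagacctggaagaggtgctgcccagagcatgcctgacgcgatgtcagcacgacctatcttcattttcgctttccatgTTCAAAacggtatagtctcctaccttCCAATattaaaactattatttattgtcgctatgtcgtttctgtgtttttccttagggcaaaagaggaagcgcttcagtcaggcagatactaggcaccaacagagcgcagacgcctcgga
Mki67: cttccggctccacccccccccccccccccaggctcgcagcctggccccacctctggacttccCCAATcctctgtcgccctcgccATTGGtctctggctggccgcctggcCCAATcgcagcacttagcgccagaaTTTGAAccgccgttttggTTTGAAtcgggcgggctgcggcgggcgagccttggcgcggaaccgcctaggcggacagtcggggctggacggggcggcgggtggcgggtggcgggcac
Cenpf: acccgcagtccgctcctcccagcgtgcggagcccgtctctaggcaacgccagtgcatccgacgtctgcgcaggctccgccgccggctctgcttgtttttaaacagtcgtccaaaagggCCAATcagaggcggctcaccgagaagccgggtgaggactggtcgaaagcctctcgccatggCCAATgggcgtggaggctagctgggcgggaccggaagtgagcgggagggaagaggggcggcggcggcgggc
Prc1 and Kif11 each showed 1 CCAAT box followed by 1 CHR hexamer close to the start, Cdk1 had 3 CCAAT boxes and 2 hexamers, and Mki67 had 3 and 2. Smc2 had the opposite order, with a hexamer at -145 before CCAAT at -119, and a second hexamer at the base numbered 27 after the start, outside the run shown. In Cenpf the hexamer begins at the base numbered 3 from the start and so falls outside the run shown.

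TTTGAA was present in 27 of 36 member windows (75%) against 20.2% of the windows of 27025 genes, CCAAT in 29 (80.6%) against 41.1%, and both in 25 (69.4%) against 8.97%. Neither was found in the windows of 5 members (Plk4, Nusap1, Mad2l1, Pttg1 and Birc5), against 47.7% of all genes. An E2F form occurred in 2 members, Ncapd2 and Ncapg (5.56%), against 1.8%. The median first base of the 35 hexamer matches was -18 and that of the 63 CCAAT matches -74, counted from the start. The elements did not sort the members by change. The 25 members with both had a median change of -0.34, the 9 without the hexamer -0.39, and both elements were present in 4 of the 5 called members with a window and in 21 of the 31 others. These matches are descriptions of letters in a window.

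**Figure D3:**
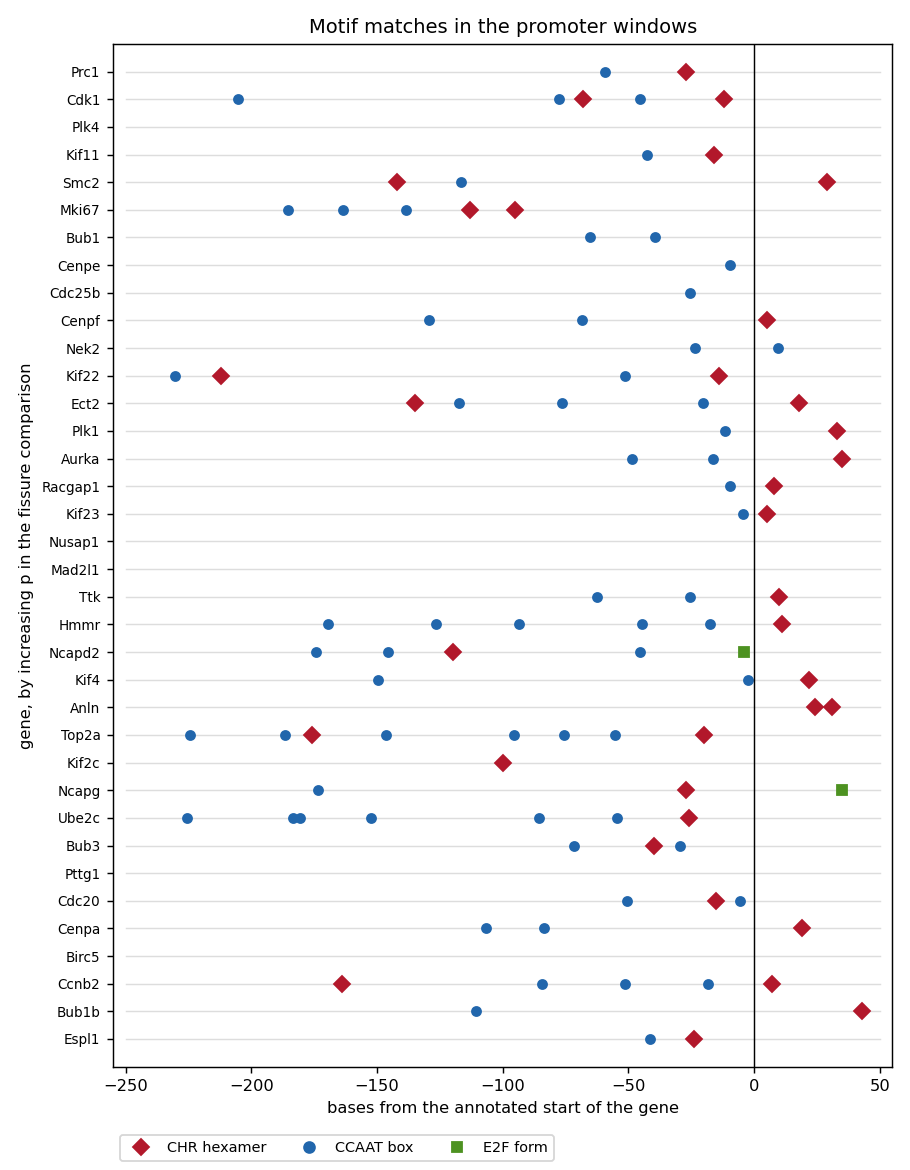
Position of each motif match in the promoter window of the 36 members with one, in bases from the annotated start, with members ordered by increasing p in the fissure comparison. Red diamonds are the CHR hexamer, blue circles CCAAT and green squares an E2F form, and the hexamers gather near the start (median first base -18) with CCAAT boxes before them (median -74).

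The Cdk1 switch and the mitotic kinases held 9 measured members, of which 2 fell, and their median change was -0.42. Cdk1, the kinase that starts mitosis, read 857, 970.6 and 802 on fissure arrays A, B and C, 1423, 1454 and 1241 on the nasal arrays and 1350.0, 1310.0 and 1459 on the temporal arrays. All fissure values lay below all others. Its change was -0.64 (SE 0.13, adjusted p = 0.00977, or 0.00504 with the block), or 35.8% lower. Plk4, the kinase that sets the number of centrioles, read 847, 1082 and 898 on the fissure arrays, 1302, 1504 and 1393 on the nasal arrays and 1315, 1472 and 1392 on the temporal arrays. Again the groups did not overlap, and Plk4 fell by 0.57 on the log2 scale (SE 0.13, adjusted p = 0.0220). Its value with the block was an adjusted p of 0.00546.

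The changes of Ccna2, Ccnb2 and Cdc25c, partners of Cdk1, differed in value. Their 95% intervals overlapped, and differences between genes were not tested. Ccna2, which encodes cyclin A, had a change of -0.42 (SE 0.15, adjusted p = 0.129, or 0.0469 with the block). Ccnb2, a cyclin B that activates Cdk1, averaged 907 ± 119 (SD, n = 3) on fissure, 1012 ± 108 on nasal and 839 ± 175 on temporal arrays, with a change of -0.02 and a 95% interval of -0.38 to 0.34. Cdc25c, a phosphatase that removes the inhibitory phosphates from Cdk1, had a change of -0.18 (adjusted p = 0.539). Its dimmer probe set, fitted singly in limma, had one of -0.50 (SE 0.15, adjusted p = 0.0912).

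Cdc25b, the phosphatase thought to trigger Cdk1 first at the centrosome, had the highest change of all members but was not called without the block. It read 223, 131 and 234 on the fissure arrays, 135, 97.7 and 142 on the nasal arrays and 105, 102 and 140.3 on the temporal arrays. Fissure arrays A and C were above every other array, while fissure array B lay among the nasal and temporal values, although it was the highest of the letter B arrays. Its change was 0.61, a 1.53-fold higher signal (SE 0.20, adjusted p = 0.0868, or 0.0106 with the block), and without fissure array B the change was 0.86. The gene had 1 single-symbol probe set.

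Of the 3 remaining kinases none was called in either limma fit, although all had an unadjusted p under 0.05. Plk1, which acts from mitotic entry to cytokinesis, had a change of -0.44 (adjusted p = 0.139), Aurka, the spindle pole kinase, one of -0.35 (adjusted p = 0.158), and in both every fissure array lay below every other. Nek2, which helps to part the centrosomes, had a change of -0.54 (SE 0.19, adjusted p = 0.111). Temporal array A, at 546, lay within the fissure range of 437 to 559, so the groups overlapped.

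**Figure D4:**
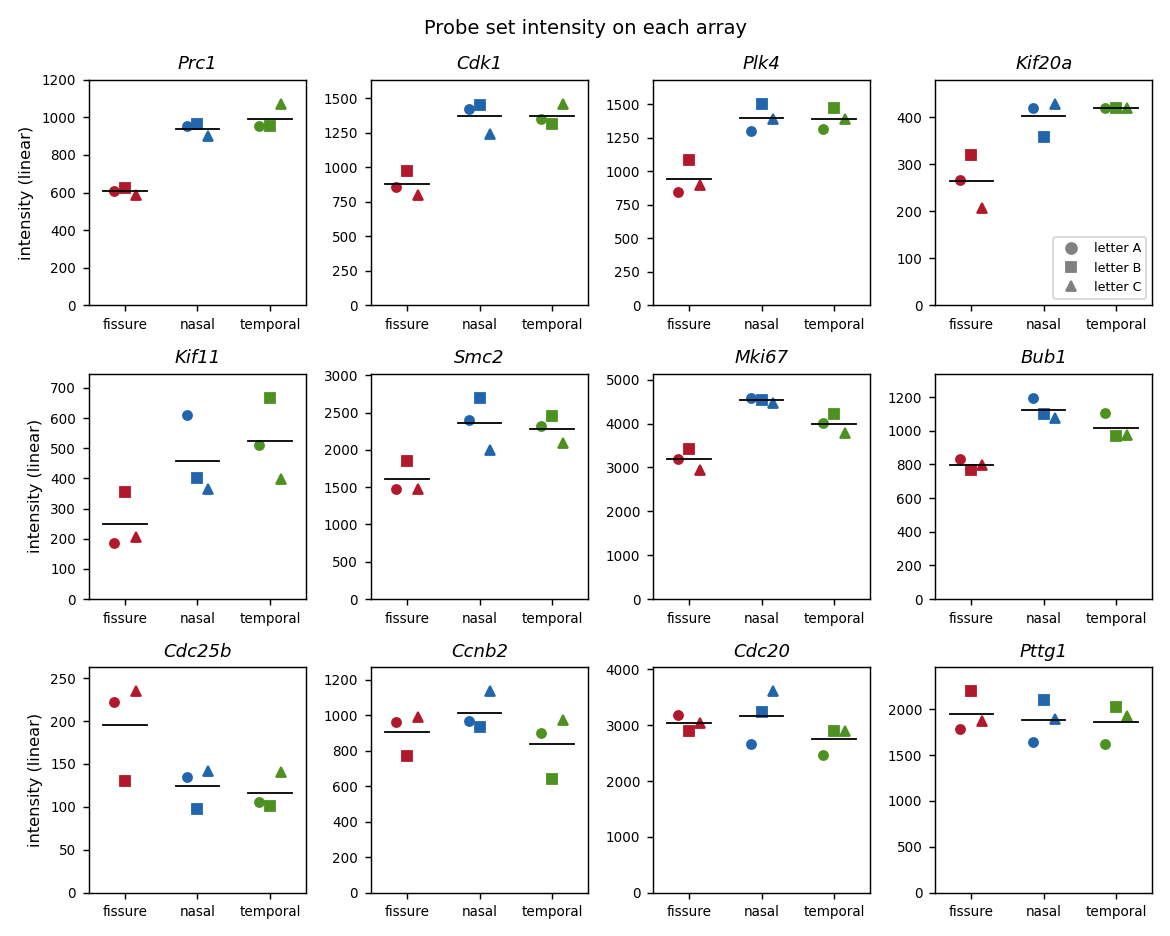
Probe set intensity, on a linear scale from 0, of 12 members on each array by region, with the letter as the symbol and the region mean as a bar. In the 8 members from Prc1 to Bub1 every fissure array lies below every other, in Cdc25b fissure arrays A and C lie above, and in Ccnb2, Cdc20 and Pttg1 the regions overlap.

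The spindle checkpoint genes delay anaphase until every kinetochore is attached. None of the 5 was called without the block in limma, although 2 (Bub1 and Mad2l1) had an unadjusted p under 0.05, 3 were lower with it, and the median change was -0.37. Bub1, a checkpoint kinase of the kinetochore, read 831, 768 and 797 on the fissure arrays, 1196, 1101 and 1075 on the nasal arrays and 1107, 966 and 976 on the temporal arrays. The fissure values were the lowest 3 of the 9. The change was -0.41 (SE 0.12, adjusted p = 0.0636, or 0.0226 with the block). Mad2l1, which encodes the inhibitor Mad2, had a change of -0.37 (adjusted p = 0.214, or 0.0493 with the block), and Ttk, the kinase Mps1 at the head of the checkpoint, one of -0.44 (adjusted p = 0.236, or 0.0275 with the block). Bub1b, which encodes BubR1, had a change of -0.003 with a 95% interval of -0.33 to 0.33. Bub3, its binding partner, read 2746, 3374 and 2860.0 on the fissure arrays, 2922, 3839 and 3378 on the nasal arrays and 2651, 3035 and 3655 on the temporal arrays. The regions overlapped, with a change of -0.11 and an interval of -0.45 to 0.23.

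The genes that end the checkpoint and split the sister chromatids had a median change of 0.03, the highest of the 8 roles, and 0 of 4 were called in limma with or without the block, all 4 intervals holding 0. Cdc20, the co-activator of the anaphase-promoting complex, read 3178, 2900.0 and 3044 on the fissure arrays, 2668, 3236 and 3605 on the nasal arrays and 2467, 2894 and 2890.0 on the temporal arrays. The regions overlapped, and the change was 0.05 with a 95% interval of -0.26 to 0.35. Pttg1, which encodes securin, read 1948 ± 216, 1876 ± 227 and 1855 ± 211 (SD, n = 3 each) on fissure, nasal and temporal arrays, a change of 0.06 with an interval of -0.25 to 0.38. Espl1, which encodes separase, read 273, 160.3 and 287 on the fissure arrays, 222, 274 and 319 on the nasal arrays and 175, 149.8 and 309.5 on the temporal arrays. These values overlapped widely, and its change of 0.002 had an interval of -0.53 to 0.53. Ube2c, the ubiquitin-conjugating enzyme of the complex, had a change of -0.17 (interval -0.59 to 0.26).

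Among the centromere proteins 0 of 3 were called in limma without the block and 2, Cenpe and Cenpf, with it, the same 2 that had an unadjusted p under 0.05. Cenpe, a kinesin that carries chromosomes to the metaphase plate, read 434, 579.6 and 444 on the fissure arrays, 679.9, 771 and 671 on the nasal arrays and 759, 574 and 593 on the temporal arrays. Fissure arrays A and C were the lowest of all, and fissure array B lay just above temporal array B. The change was -0.46 (SE 0.15, adjusted p = 0.0868, or 0.0471 with the block). Cenpf, a large kinetochore protein, had a change of -0.40 with no overlap of the groups (adjusted p = 0.109, or 0.0268 with the block). Cenpa, the histone H3 variant that marks centromeres, had a change of -0.05 (interval -0.43 to 0.33).

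The chromosomal passenger complex corrects faulty attachments and then moves to the central spindle. None of its 3 members was called in either limma fit, and 1 had an unadjusted p under 0.05. That was Aurkb, its kinase, which had a change of -0.33 with no overlap of the groups (SE 0.13, adjusted p = 0.155). Incenp, the scaffold, had a change of -0.06 (interval -0.39 to 0.28). Birc5, which encodes survivin, had a change of -0.09 with the widest interval of all members in the fit without the block, -0.82 to 0.65 (SE 0.33, or 0.12 with the block). Its intensity followed the letter, with 342, 402 and 418 on the letter B arrays of fissure, nasal and temporal against 677 to 979 on the 6 others.

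The spindle motors and microtubule-associated proteins held 7 members, all with a change below 0 and a median of -0.34, and 1 of them fell. Kif11, the motor that slides antiparallel microtubules apart to separate the poles, read 186, 355 and 206 on the fissure arrays, 609.9, 400.5 and 363 on the nasal arrays and 511, 668 and 397 on the temporal arrays. Every fissure value lay below every other, by a narrow margin for fissure array B (355 against 363 on nasal array C). Kif11 fell by 0.96 on the log2 scale, the largest change of the list, or 48.5% lower (SE 0.24, adjusted p = 0.0301, or 0.0112 with the block). Kif22, a motor that pushes chromosome arms toward the plate, had a change of -0.43 with no overlap (adjusted p = 0.124). Nusap1, which bundles microtubules near chromosomes, had a change of -0.39 (adjusted p = 0.206), and Hmmr, a spindle pole protein, one of -0.34 (adjusted p = 0.270). Kif4, a chromosome-bound motor, read 227, 278 and 211 on the fissure arrays, 295, 289 and 281 on the nasal arrays and 362, 225 and 336 on the temporal arrays. Temporal array B was among the fissure values, and the change was -0.30 (adjusted p = 0.326). Kif2c, which shortens microtubule ends at centromeres, and Tpx2, which activates Aurora A and helps microtubules to form near chromosomes, had changes of -0.22 and -0.20.

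The central spindle and cytokinesis genes had the lowest median change of the 8 roles, -0.44, and 2 of 6 fell. Prc1, which crosslinks the antiparallel microtubules of the central spindle, read 606, 624 and 588 on the fissure arrays, 956, 963 and 901 on the nasal arrays and 952, 953 and 1072 on the temporal arrays. The 3 fissure values lay close together and far below the rest. Prc1 fell by 0.66 on the log2 scale (SE 0.12, adjusted p = 0.00533, or 0.00300 with the block), or 36.6% lower. Kif20a, the motor that brings the passenger complex to the midzone, read 266, 319.7 and 207 on the fissure arrays, 420.1, 358 and 428 on the nasal arrays and 419, 419.5 and 420.1 on the temporal arrays. The groups did not overlap, and Kif20a fell by 0.62 (SE 0.15, adjusted p = 0.0248, or 0.0156 with the block).

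The other cytokinesis members were all lower in value but none was called without the block. Ect2, which activates RhoA at the furrow, read 725, 1312 and 739.8 on the fissure arrays, 1270.0, 1419 and 1128 on the nasal arrays and 1308, 1621 and 1172 on the temporal arrays. Fissure arrays A and C lay far below all others, and fissure array B lay within the range of the others. Its change was -0.55 (SE 0.20, adjusted p = 0.128, or 0.0202 with the block). Racgap1 and Kif23, which together form centralspindlin, had changes of -0.33 and -0.32 with no overlap of the groups in either (adjusted p = 0.159 and 0.192). Anln, which encodes the furrow scaffold anillin, had a change of -0.28 (adjusted p = 0.345).

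The genes that shape mitotic chromosomes held 6 members with a median change of -0.41, and 1 of them fell. Smc2, a core ATPase of condensin, read 1482, 1858 and 1475 on the fissure arrays, 2396, 2701 and 2004 on the nasal arrays and 2315, 2456 and 2090.0 on the temporal arrays. Every fissure value lay below every other, and Smc2 fell by 0.53 on the log2 scale (SE 0.15, adjusted p = 0.0463, or 0.00884 with the block). It was called in 10 of 22 alternatives, the fewest of the 6 called members. Mki67, which coats mitotic chromosomes and marks cycling cells, read 3184, 3428 and 2951 on the fissure arrays, 4591, 4540.0 and 4470.0 on the nasal arrays and 4011, 4216 and 3780.0 on the temporal arrays, also with no overlap. Its change was -0.42 (SE 0.12, adjusted p = 0.0577, or 0.0222 with the block). Smc4, the partner of Smc2, had a change of -0.41 (adjusted p = 0.111, or 0.0498 with the block), while its second brightest probe set, fitted singly, had one of -0.03. Ncapd2 and Ncapg, subunits of condensin I, had changes of -0.42 and -0.21, neither called. Top2a, the topoisomerase that untangles sister chromatids, read 3096, 2797 and 3858 on the fissure arrays, 3660.0, 3939 and 4437 on the nasal arrays and 3681, 3397 and 3901 on the temporal arrays. Fissure array C lay among the other regions, and the change was -0.25 (adjusted p = 0.357).

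Against each side of the cup separately, which share the fissure arrays, Prc1 and Cdk1 were the members called. Against nasal, 2 members fell (1.97% of all genes called lower) and with the block 10 were lower (4.17%), with a median change of -0.39. Against temporal, 2 members fell (1.89% of all genes) and with the block 7 were lower (4.37%), with a median change of -0.32. In either comparison 1 member, Cdc25b, was called higher with the block. Prc1 differed by -0.62 from nasal (SE 0.14, adjusted p = 0.0213) and by -0.70 from temporal (SE 0.14, adjusted p = 0.0128). Cdk1 differed by -0.64 from each (SE 0.15, adjusted p = 0.0264 against nasal and 0.0290 against temporal). Without fissure array A, or without fissure array C, 0 members were called in either comparison, against 2.91% to 3.6% of all genes in either direction. There, 6 to 16 members were lower at an unadjusted p under 0.05. Without fissure array B the counts were 11 against nasal (9.75% of all genes) and 8 against temporal (9.09%), each with 1 member called higher.

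Between the nasal and the temporal cup no member was called, although most read slightly higher on the nasal side. In limma 0 of 43 members were called, without the block (0.0470% of all genes) or with it (0.133%), and 0 had an unadjusted p under 0.05 (2.91% of all genes). The changes of nasal minus temporal ran from -0.20 for Kif11 to 0.39 for Espl1, with a median of 0.08 (-0.0005 over all genes). The change was above 0 in 36 of 43 members, against 49.9% of all genes, and nasal was above temporal within each of the 3 letters in 13 members, against 14.2% of all genes. The members' mean deviation was higher on the nasal than on the temporal array of every letter (0.11 against 0.03 in A, 0.15 against 0.02 in B and 0.17 against 0.14 in C). All 43 of the 95% intervals held 0, with a median margin of 0.39 on either side, or 0.31 with the block. The widest bounds were -0.95 and 0.999.

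Most members had further probe sets on the array, which were not used to choose or call them. Each single-symbol probe set was fitted singly, an analysis added after the values were seen. Of 61 others, 53 passed the filter, 44 of these had a change below 0, and 3 were called lower, against 1.92% of 23510 probe sets. The 3 were second probe sets of Prc1 (-0.83, adjusted p = 0.00442), Plk4 (-0.74, adjusted p = 0.0247) and Bub1 (-0.67, adjusted p = 0.0255). Kif11's others lay at -0.75 (adjusted p = 0.0593) and -0.36. Changes also differed in value among probe sets of a gene, and these differences were not tested. Smc4, at -0.41 in the probe set used, read -0.03 and -0.95 in its others, and Nek2, at -0.54, read -0.17 and 0.05 in the others tested. Further examples were Bub3, which lay between -0.83 and -0.05, Hmmr, between -0.49 and 0.01, Kif22, between -0.43 and -0.02, and Kif2c, between -0.26 and 0.23. Ncapg lay at -0.21 and -0.88, Ncapd2 at -0.42 and 0.17, and Cenpa at -0.05 and 0.44 among those tested. Some of these probe sets were dim, with mean intensities of 28.8 (Nek2 at 0.05), 30.3 (Kif2c at 0.23) and 22.1 (Bub3 at -0.05). Others were imprecise, with an SE of 0.40 for Cenpa at 0.44 and 0.47 for Ncapg at -0.88. The probe set of Smc4 at -0.03 was bright (2399, SE 0.15). Probe sets of 1 gene were read on the same RNA samples and are not replicates.

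Other genes of the pathway, from lists that do not hold the members, are given beside the 2.88% of all genes called lower, or 5.97% with the block, and the median of 0.04 over all genes. Of 33 other kinetochore genes 2 fell, with a median of -0.28 and 10 lower with the block. These were Cenpk, of the inner kinetochore (-0.68, SE 0.13, adjusted p = 0.00681), and Ndc80, which binds the microtubule (-0.54, SE 0.13, adjusted p = 0.0267). Of 32 other spindle and cytokinesis genes 1 fell, a share near that of all genes. It was Dlgap5, a spindle fibre protein (-0.77, SE 0.20, adjusted p = 0.0339), with a median of -0.22 and 4 lower with the block. Of 14 other condensin and cohesin genes 1 fell, Ncapg2 of condensin II (-0.77, SE 0.14, adjusted p = 0.00513), with a median of -0.18. Of 34 other genes of mitotic entry, exit and transcription 2 fell, with a median of -0.07 and 6 lower with the block. These were Wee1, which holds Cdk1 inactive (-0.62, SE 0.14, adjusted p = 0.0173), and Melk, a kinase of cycling cells (-0.47, SE 0.13, adjusted p = 0.0489).

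The difference was not limited to mitosis. Of 25 S-phase genes, 6 fell and 11 were lower with the block, with a median of -0.36. Ccne1, which encodes the cyclin of S-phase entry, averaged 384 over the fissure arrays, 968 over the nasal and 1059 over the temporal arrays (change -1.37, SE 0.20, adjusted p = 0.00139). Cdc6 and Cdc45, which help to load and activate the replicative helicase, changed by -0.80 each (adjusted p = 0.00338 and 0.00593). Of 8 genes of cell cycle exit 1 rose, against 5.72% of all genes called higher, and 2 were higher with the block, against 11.0%. Their median was 0.23. The gene that rose was Cdkn1c, which encodes the Cdk inhibitor p57, at 1372 against 788 and 827 (change 0.75, SE 0.12, adjusted p = 0.00288). Cdkn1b, another Cdk inhibitor, changed by -0.13 (adjusted p = 0.689).

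**Figure D5:**
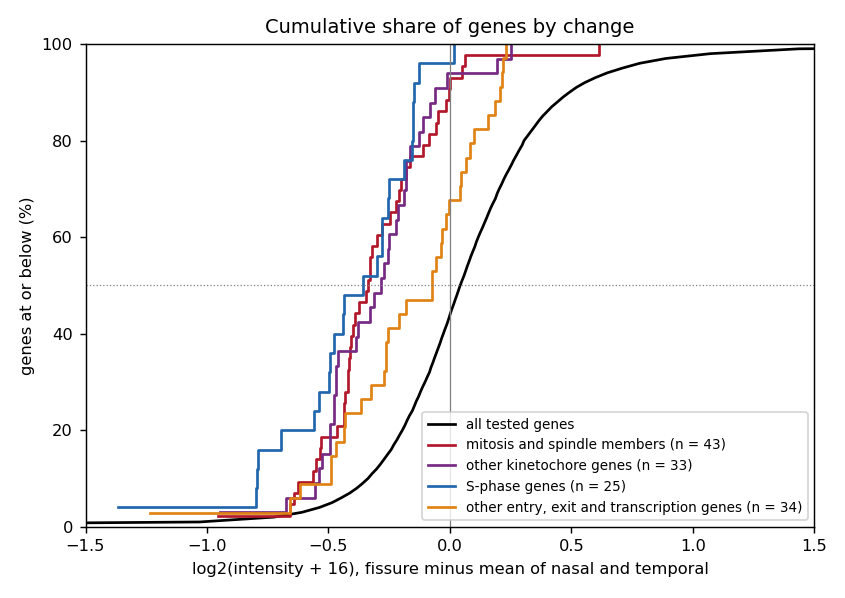
Cumulative share of genes (percent) by change, fissure minus the mean of the other regions, in log2(intensity + 16), for all tested genes, the 43 members and 3 other lists. The dotted line at 50% meets the members at -0.34, the S-phase genes at -0.36, the other kinetochore genes at -0.28, the other entry, exit and transcription genes at -0.07 and all genes at 0.04.

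Some markers of other cells differed in the fissure as well, not all in 1 direction, and their part in these results was not tested. All 11 tested leukocyte markers rose (Fcer1g did not pass the filter), and their summed intensity was 2815 to 3190.0 on fissure arrays, 537 to 785 on nasal and 433 to 694 on temporal arrays. Of 7 tested lens markers 4 rose (Maf, Cryaa, Cryba1 and Crybb1), while Crygs, Foxe3 and Bfsp1 did not pass the filter. The lens sums were 2413 to 3472 against 656 to 700.3 and 600.0 to 1228. Maf alone read 1166, 1700 and 1046 on fissure arrays A, B and C, and Prox1 changed by -0.14. Of 12 mesenchyme markers 4 rose and 2 fell, with sums of 1041 to 2201 against 788 to 1212 and 674 to 1358, the lowest fissure sum being that of array B. The 6 tested endothelial markers, without Pecam1 and Tie1, had a median change of 0.34 and none was called (sums 287 to 593, 272 to 342 and 314 to 464). The 5 erythroid markers had a median change of 0.69, and 3 were higher with the block but none without it (sums 13300 to 17780, 9416 to 14770 and 11490 to 13310).

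Markers of the cup itself also differed. Of 10 retinal progenitor markers 4 fell (Fgf15, Hes5, Pax6 and Sfrp2), and 8 had a change below 0. Lhx2, at 0.62 (adjusted p = 0.0821), was called higher with the block (adjusted p = 0.00723), and Six3 changed by 0.20. The sum, in the same order of regions, was 8320 to 8972 in the fissure against 12500 to 15340 and 13590 to 15000. Of 8 tested pigment epithelium markers 1 rose and 4 fell, with sums of 10430 to 12580, 12510 to 14730 and 11470 to 14400, and of 8 tested neuronal markers 1 fell, with sums of 213 to 378, 235 to 319 and 241 to 320.3. The ratio of Gapdh signal at the 3-prime end to that at the 5-prime end, which rises with poorer RNA, was 7.99, 4.88 and 14.5 on fissure arrays A, B and C, 6.01, 4.85 and 8.64 on the nasal arrays and 7.31, 4.42 and 6.61 on the temporal arrays. The poly-A spike, as the geometric mean of 4 probe sets, read 214, 273 and 525 on the fissure arrays, 140.0, 181 and 265 on the nasal arrays and 120.2, 144 and 240.3 on the temporal arrays. Both were highest in the fissure within each letter. Their part in the lower values of the members was not tested, other than by the covariate fits. With the Gapdh ratio as a covariate in limma, 5 members were called lower, where 8.11% of all genes were called in either direction. Kif11 (-0.76, adjusted p = 0.0539) and Smc2 (-0.42, adjusted p = 0.0912) were not among them. The spike fit is given above.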

How the data were processed

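The authors deposited 1 table of linear probe set intensities for 9 Affymetrix mouse 430 2.0 arrays, 3 per region. The summary of probes and the scaling are not given in the sources used here. On every array, the mean after trimming 2% from each end of the deposited intensity values was 150, and no further scaling was applied. Symbols came from the platform annotation (34945 probe sets with 1 symbol, 932 with several, 9160 unnamed), and older names and promoters were matched through RefSeq tables of GRCm38.p6. Per gene, the brightest single-symbol probe set entered a linear model of log2(intensity + 16) with 1 mean per region (limma 3.58.1, R 4.3.3), a script tested on simulated data. Fold changes understate dim genes.

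The members, lists and rules were chosen with earlier results of these data known. Full values are given for called members, the 10 smallest p, and the 3 brightest and 3 dimmest members, and up to 3 genes of smallest p per other list. The letters were taken to pair the arrays only in the blocked fits and the within-letter values, because every same-letter correlation exceeded 0.1. Other pairs reached 0.218, above the lowest same-letter value of 0.166, so the ranges overlap. The deviations sum to 0 within each region, so these correlations are not independent. The pairing rests on the data and not on the labels. Alternatives covered the filter, normalization, pseudocount, probe set choice, variance model, array weights, letter block, letter B, RNA quality covariates and leaving out each array. Figures used matplotlib 3.10.9.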

Additional observations from a re-analysis of the deposited data

How the results depend on the processing

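All 10 members with the smallest p kept their direction under every alternative that tested them. Against both other regions together 6 members were called, where 8.6% of all genes were called in either direction. The count was 20 with array weights (32.1% of all genes), 16 with the letter as a replicate block (16.9%) and 11 without letter B (12.5%). It was 0 with the spike covariate (3.71%, with 11 members at an unadjusted p under 0.05 in limma). Leaving out 1 array gave 1 to 13 (4.27% to 13.5%). Against nasal 2 were called (6.37% of all genes). The count was 4 with the stricter filter (6.8%), 4 with median centring (6.04%) and 7 with a pseudocount of 64 (6.28%). It was 5 with the mean over probe sets (5.82%), 1 with the dimmest (3.19%) and 6 with an intensity trend (6.42%). Weights gave 17 (20.9%), the block 11 (12.4%) and leaving out letter B 6 (8.73%). The spike gave 0 (3.58%, with 16 unadjusted) and only the regions compared gave 1 (5.44%). Leaving out 1 array gave 0 to 11 (3.29% to 9.75%). Against temporal 2 were called (5.36% of all genes). In the same order, the stricter filter to the intensity trend gave 5 (6.05%), 4 (5.38%), 5 (5.57%), 4 (4.86%), 1 (3.06%) and 5 (5.53%). Weights gave 17 (24.5%), the block 8 (12.1%) and leaving out letter B 7 (6.65%). The spike gave 0 (2.27%, with 5 unadjusted), only the regions compared 1 (4.21%) and the Gapdh ratio 1 (5.58%). Leaving out 1 array gave 0 to 8 (2.91% to 9.09%). Nasal against temporal stayed at 0 throughout all 24. With array weights, with the block and without fissure array B, each fissure comparison had 1 member called higher. Without letter B, 1 was called higher against both regions together and 1 against temporal. Prc1 was called in 22 of 23 alternatives, with adjusted p-values of 0.000347 to 0.0543, Cdk1 in 20, Plk4 in 19, Kif20a in 17, Kif11 in 14, and Smc2 in 10 of 22. The causes of these moves were not tested, apart from fewer arrays where 1 is left out. The 9 arrays limit precision.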

Other observations

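Some members followed the array letter across the 3 regions. All 3 letter B arrays lay below all 6 others in Birc5 (mean intensity 387 against 798), Ube2c (545 against 775) and Cenpa (1465 against 1916), and above them in Ect2 (1451 against 1057) and Pttg1 (2103 against 1788). These 3 and 2 members are 6.98% and 4.65% of the list, against 8.96% and 4.96% of all tested genes, so the share was near that of all genes.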
